A study of Mus musculus with 12 samples.

Results

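B-lineage cells were looked for among mouse thymocytes that had been sorted as double-negative (DN) stages DN1, DN2 and DN3, immature thymocytes that carry neither CD4 nor CD8 and give rise to T cells. A cell was taken as B-lineage when it held at least 500 unique molecular identifiers (UMIs, each counted as 1 captured transcript), at least 2 UMIs of Cd79a and no UMI of Ptcra. Cd79a encodes a signalling chain of the B cell receptor, and Ptcra the pre-TCR chain of early T cells. This rule found 73 of the 29594 cells of the DN1–DN3 sort, out of 97404 cells in the series. The values of Cd79a and Ptcra that chose the cells are therefore a description, as is every contrast between these cells and the other cells of the sort.

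Adult C57BL6/J mice that were wild-type (WT) or carried a germline knockout of Gfi1 (GFI1 KO) gave the thymocytes. Gfi1 encodes a transcriptional repressor of haematopoietic cells, and a germline knockout acts in every cell type of the mice, not in T cells alone. WT and KO cells were marked with different hashtags and run together in 2 pools, so that each pool gave 1 WT and 1 KO library (n = 2 libraries per genotype, 7031 to 7666 cells and 46724322 to 62578788 UMIs each). Before the sort, antibodies and a magnet had removed B cells, myeloid and NK cells, so the cells described here are those that passed this step and the sorting gates, not the B cells of the thymus as a whole. The number of mice behind a library was not given in the sources used here, and p-values measure the spread between these libraries. Xist, a transcript of female cells, and Y-linked genes were both found among the other sorted cells of each library. Cells with only Xist numbered 4305 and 3854 in WT of pools 1 and 2 and 5699 and 4822 in KO. Those with only Y-linked UMIs numbered 1835 and 2393 in WT and 470 and 1604 in KO. This mix thus differed between the genotypes, and an effect of sex was not tested.

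A small population of B cells lives in the thymus, where it presents antigens on MHC class II to developing T cells. When B cells are activated they can exchange the heavy chain constant gene that they transcribe (Ighm and Ighd in unswitched cells, one of the Ighg genes, Igha or Ighe after class switching) and can mature into plasma cells. Plasma cells turn down most B cell surface genes, transcribe 1 heavy and 1 light chain gene at very high levels, and make Jchain, the chain that joins IgM and IgA into polymers, together with a large endoplasmic reticulum.

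The label was checked on 14 B cell identity genes that the rule did not use (Ms4a1, Pax5, Ebf1 and others). Their UMIs were not scaled to depth, and median total UMIs were 3622 and 5363 in WT and 12126 and 11128 in KO B-lineage cells, against 5570 to 6180 in other cells. The other sorted cells held a median of 2 UMIs of these genes in each library, with a 95th percentile of 6 to 7, and 67 of the 73 cells lay above that percentile of their own library. Of the 6 that did not, 5 were cells with high antibody transcripts, described next, and held 1 to 6 such UMIs. The last was a cell of WT replicate 1 with 2 Cd79a UMIs, no B cell identity UMI and 98 UMIs of 14 T-lineage genes, and its transcripts went against the label. Including this cell, 4 B-lineage cells held 40 or more T-lineage UMIs, 1 in WT replicate 1 and 3 in KO replicate 2, whereas the medians of the other cells were 44 to 66.5. The 3 KO cells also held 28 to 60 B cell identity UMIs. A UMI of Cd3d, Cd3e or Cd3g, which encode the invariant T cell receptor chains, was found in 60 of the 73 cells, mostly as a few UMIs (medians 1 and 1.5 in the 2 kinds of cell), against medians of 20 to 24 in the other cells. No B-lineage cell held a UMI of Siglech or Cox6a2, 2 of 8 listed genes of plasmacytoid dendritic cells. At most 0.0413% and 1.27% of a library's other cells held one, so this absence tells little. Scaled to a common total of UMIs (CPM), the 8 genes summed to 648 and 1244 CPM in WT and 1163 and 1076 CPM in KO B-lineage cells. In the other cells they summed to 632 to 699 CPM. None of the 73 had a barcode that occurred in another library of the sort. The cells' own hashtag led in all 73, with a lowest share of 77.4% of the tag UMIs. It led in 100% of the cells of these libraries, which had been split by hashtag. The WT and KO libraries of a pool shared 0 barcodes. Neither the barcodes nor the leading hashtag therefore checks the label or the genotype of these cells.

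B-lineage cells were few in every library and more frequent in both KO libraries. WT replicate 1 held 7 cells (0.0962% of the library, 95% Wilson interval 0.0466 to 0.198) and WT replicate 2 held 4 (0.0525%, 0.0204 to 0.135). KO replicate 1 held 15 cells (0.213%, 0.129 to 0.352) and KO replicate 2 held 47 (0.613%, 0.461 to 0.814). The 2 KO shares lay above the 2 WT shares, and the interval of KO replicate 1 overlapped those of both WT libraries while that of KO replicate 2 overlapped none of the other 3. The mean share was 0.413% ± 0.283 (SD, n = 2) in KO and 0.0743% ± 0.0309 (SD, n = 2) in WT. The difference of 0.339 percentage points gave p = 0.333 in a two-sided exact permutation test, the smallest value that 2 against 2 libraries allow. It was 0.117 points within pool 1 and 0.561 points within pool 2. Without KO replicate 2, which held 47 of the 62 KO cells, the difference was 0.139 points. When cells with any Cd3d, Cd3e or Cd3g UMI were left out, 1 WT and 12 KO cells remained and the difference was 0.0726 points. A share of a sort cannot tell more B-lineage cells from fewer of the other sorted cells.

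**Figure D1:**
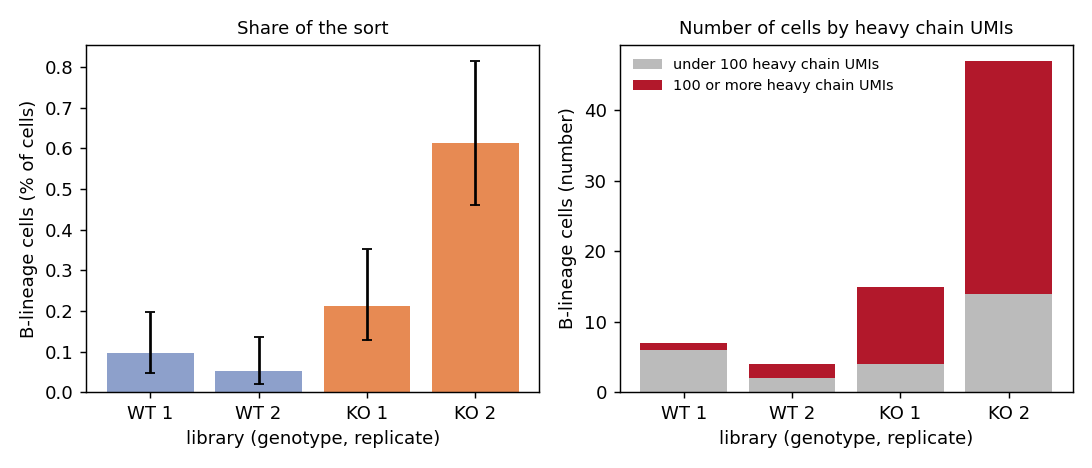
Share of B-lineage cells in each library of the DN1–DN3 sort (left, percent of cells, bars with 95% Wilson intervals for counting error) and their number (right), split by the heavy chain constant UMIs in the cell. The KO libraries stood at 0.213% and 0.613%, the WT libraries at 0.0962% and 0.0525%, and most of the surplus KO cells held 100 or more heavy chain UMIs.

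The 73 cells fell into 2 kinds by their heavy chain transcripts, the summed UMIs of the 8 heavy chain constant genes. In 26 cells this sum was 2 to 28 UMIs, in the other 47 it was 224 to 1953 UMIs, and no cell lay between. A value of 100 UMIs, chosen after the values were seen, separates antibody-rich from antibody-low cells below, and the split is a description without a test. The antibody-rich cells held a median of 3698 Igkc UMIs (kappa light chain; lowest 118, highest 7245), and immunoglobulin genes made up a median of 39.3% of all their UMIs (9.21% to 56.6%). In the antibody-low cells the median was 21.5 Igkc UMIs (0 to 50), and immunoglobulin genes took at most 1.76% of the UMIs. Antibody-rich cells were also deeper, with a median of 12502 total UMIs against 3852.

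Genes outside the immunoglobulin loci followed the same split. Jchain was found in 47 of the 47 antibody-rich cells, with 14 to 1539 UMIs, and 25 of the 26 antibody-low cells held none. Xbp1, the transcription factor of the secretory programme, was detected in 47 of 47 antibody-rich and 3 of 26 antibody-low cells, with medians of 14 and 0 UMIs. Of the other sorted cells, 37.8% to 46.4% held an Xbp1 UMI and 3.05% to 9.37% a Jchain UMI. Sdc1 (CD138), Prdm1 (BLIMP1, which represses B cell identity) and Tnfrsf17 (BCMA, a survival receptor of plasma cells) were found in 29, 30 and 17 antibody-rich cells and in no antibody-low cell. Conversely, Pax5, the transcription factor that holds B cell identity, was found in 23 of 26 antibody-low cells and in none of the 47 antibody-rich cells, and Ebf1, an earlier factor of the lineage, in 25 of 26 and 7 of 47. Ms4a1 (CD20) had a UMI in 23 of 26 and 25 of 47. The B cell identity genes summed to a median of 41.5 UMIs in the shallower antibody-low cells and 16 in the antibody-rich cells, although individual cells overlapped (0 to 90 and 1 to 44). In CPM they summed to 2695 and 193 in antibody-rich cells of WT replicates 1 and 2 and to 1369 and 1240 in KO. The other sorted cells stood at 293 and 271 CPM in WT and 375 and 310 CPM in KO, so WT replicate 2 went the other way. MHC class II genes were found in both kinds, with medians of 79 UMIs in the shallower antibody-low and 76 in the antibody-rich cells. Relative to all UMIs (CPM, UMIs scaled to a common total), they summed to 17248 and 18190 CPM in the antibody-low and to 4499 and 6198 CPM in the antibody-rich cells of the KO libraries. In WT replicates 1 and 2 the values were 7406 and 20037 CPM in antibody-low cells, and 29425 CPM in the single antibody-rich cell of replicate 1 and 3156 CPM in the 2 of replicate 2, so the order was not the same in every library.

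**Figure D2:**
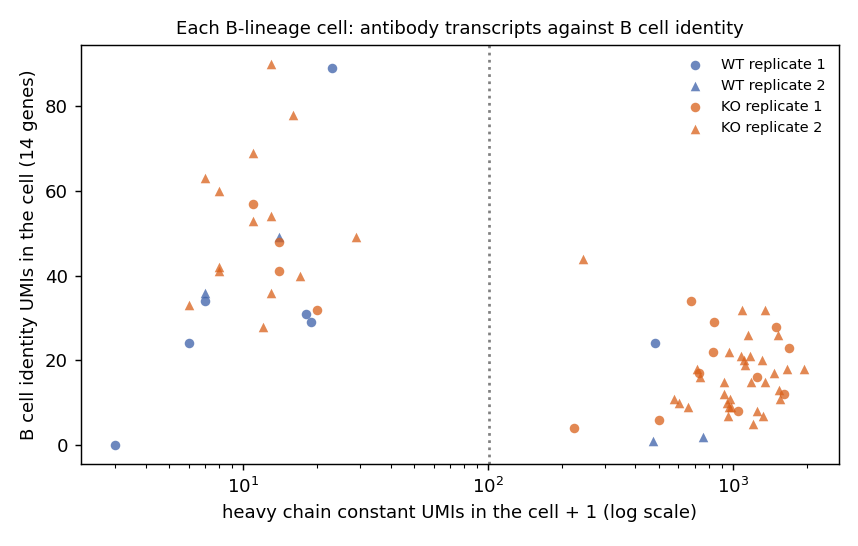
Each point is 1 of the 73 B-lineage cells, with its summed heavy chain constant UMIs (x axis, log scale, 1 added) and its summed UMIs of 14 B cell identity genes (y axis), coloured by genotype and shaped by replicate. The cells form 2 separate groups, at 2 to 28 and at 224 to 1953 heavy chain UMIs, on either side of the dotted line at 100.

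The antibody-rich cells made up the larger part of the genotype difference. WT replicates 1 and 2 held 1 and 2 of them, and KO replicates 1 and 2 held 11 and 33. The antibody-low cells numbered 6 and 2 in the WT libraries and 4 and 14 in the KO libraries, so that their share overlapped between the genotypes and was lower in KO within pool 1 (KO minus WT -0.0255 points). Antibody-rich cells were thus 71.0% of the KO and 27.3% of the WT B-lineage cells.

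Class-switched cells led by an IgG gene were found in both KO libraries and in neither WT library of the DN1–DN3 sort. Each cell was assigned the heavy chain constant gene with the most UMIs, a measure that the rule on Cd79a and Ptcra had not used. Igkc, Ighg2b and Jchain had, however, been listed as markers of these cells with earlier results of these data known. The IgG contrast is therefore not independent of how these cells were picked for study. In WT replicate 1, Ighm led in 4 cells and Ighd in 2, and 1 cell had no leading gene. In WT replicate 2, Ighm and Igha led in 2 cells each. KO replicate 1 held 6 cells led by Ighm, 4 by Ighg2b, 2 by Ighg2c, 2 by Igha and 1 by Ighg1. KO replicate 2 held 21 cells led by Ighm, 18 by Ighg2c, 6 by Ighg2b and 2 by Igha. No cell was led by Ighg3 or Ighe.

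IgG genes led in 7 of 15 cells of KO replicate 1 (46.7%, 95% Wilson interval 24.8 to 69.9) and 24 of 47 of KO replicate 2 (51.1%, 37.2 to 64.7), against 0 of 6 and 0 of 4 assigned WT cells (upper Wilson limits 39% and 49.0%). The mean share was 48.9% ± 3.11 (SD, n = 2) in KO, and the difference from WT gave p = 0.333 in a two-sided exact permutation test, again the smallest possible. Each IgG-led cell was antibody-rich, and WT held 3 antibody-rich cells in all, 1 led by Ighm and 2 by Igha, so at this depth an IgG share of 0 was measured in few WT cells. Of the 44 antibody-rich KO cells, 31 were led by IgG genes, 9 by Ighm and 4 by Igha. The 26 antibody-low cells of both genotypes were led by Ighm or Ighd, apart from the single cell without a leading gene.

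**Figure D3:**
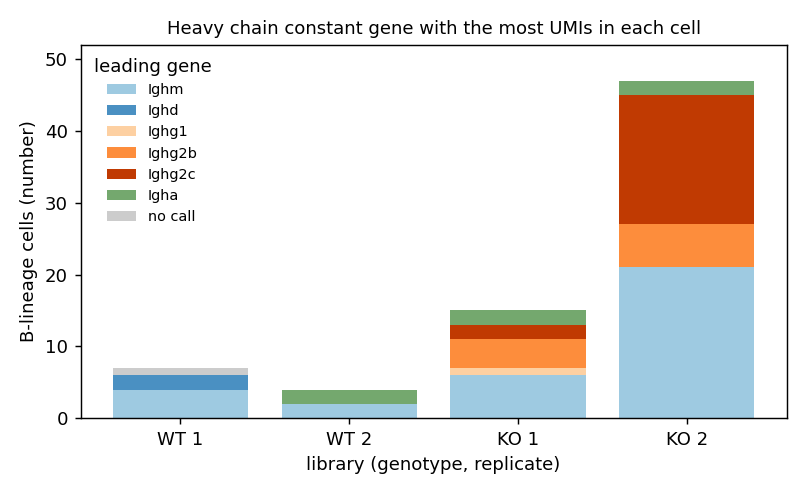
Number of B-lineage cells in each library by the heavy chain constant gene with the most UMIs in the cell. Ighg2b and Ighg2c led in 6 cells of KO replicate 1 and 24 of KO replicate 2, and no Ighg gene led in the 11 WT cells.

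Single cells were close to exclusive in the heavy chain they transcribed. In 46 of the 47 antibody-rich cells at least 95% of the heavy chain UMIs came from 1 constant gene. The 20 antibody-rich cells led by Ighg2c held 244 to 1659 heavy chain UMIs, the 10 led by Ighg2b 671 to 1953, and the 10 led by Ighm 224 to 1559, so the isotypes overlapped in amount. Jchain was found at a median of 558 UMIs in the 6 cells led by Igha, 408 in those led by Ighm, 320 in those led by Ighg2b and 341 in those led by Ighg2c. The Igha range (406 to 1539) overlapped those of the cells led by Ighm (14 to 918), Ighg2b (150 to 544) and Ighg2c (181 to 490). Ighg2b and Ighg2c are close relatives, but of the 1236 stretches of 90 bases in the annotated Ighg2c transcripts 0 occurred in Ighg2b. Light chain transcripts came mainly from Igkc, which led in 14 of 15 and 47 of 47 KO cells and in 4 of 7 and 4 of 4 WT cells.

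V gene transcripts, which 3′ sequencing covers sparsely, were used to see whether antibody-rich cells shared receptors. A heavy and a kappa V gene with at least 3 UMIs and more than any other could be named in 1 and 2 WT cells, 10 cells of KO replicate 1 and 32 of KO replicate 2. The 10 cells of KO replicate 1 carried 10 different pairs. In KO replicate 2 the 32 cells carried 24 pairs, and 7 pairs occurred in more than 1 cell, together in 15 cells. The pair Ighv1-50 with Igkv10-96 was found in 3 cells, each led by Ighg2c, and Ighv8-8 with Igkv4-59 in 2 cells, both led by Ighm. Of these 7 pairs, 6 joined cells with the same leading constant gene, whereas the 2 cells with Ighv1-59 and Igkv14-111 were led by Igha and Ighg2b. V genes have near-identical relatives, so these names are uncertain, and no receptor sequence was assembled.

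In CPM of summed UMIs, most immunoglobulin constant genes were far above the remaining cells of the same libraries. Igkc stood at 41943 and 281939 CPM in the WT B-lineage cells and at 234773 and 261218 CPM in the KO cells. Ighm stood at 12291 and 622 CPM in WT and 6255 and 16084 CPM in KO, so that the genotypes overlapped. Ighg2b was at 0 CPM in both WT libraries and at 31511 and 14508 CPM in KO, and Ighg2c at 0 in WT and at 11366 and 37475 CPM in KO. Ighg1 was at 9059 CPM in KO replicate 1, where 1 cell gave 1492 of the 1496 UMIs, and at 17.6 CPM in KO replicate 2. Igha was highest in WT replicate 2, at 54371 CPM from 2 cells, against 46.3 CPM in WT replicate 1 and 8078 and 3837 CPM in KO. Ighd, transcribed by unswitched cells, was at 394 and 222 CPM in WT and 72.7 and 41.2 CPM in KO, and all of its 55 UMIs lay in antibody-low cells. Ighg3 had 6 UMIs in all and Ighe none. Jchain was at 8935 and 47397 CPM in WT and 32262 and 25316 CPM in KO.

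Cells that were not B-lineage also held some of these transcripts. In cells outside the rule and with fewer than 100 heavy chain UMIs, an Igkc UMI was found in 14.2% and 13% of WT and KO cells of pool 1 and in 40.8% and 40.9% of pool 2, at median depths of 5566 to 6180 UMIs. An Ighg2c UMI was found in 0.605% and 0.371% of these cells in pool 1 and in 7.12% and 7.0% in pool 2. These shares differed more between the pools than between WT and KO. Among B-lineage cells, Igkc was found in 5 of 7 and 4 of 4 WT cells and in 14 of 15 and 47 of 47 KO cells, and Ighg2c in 3 of 15 and 23 of 47 KO cells. Ighm was found in 26.4% to 39.9% of the remaining cells.

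**Figure D4:**
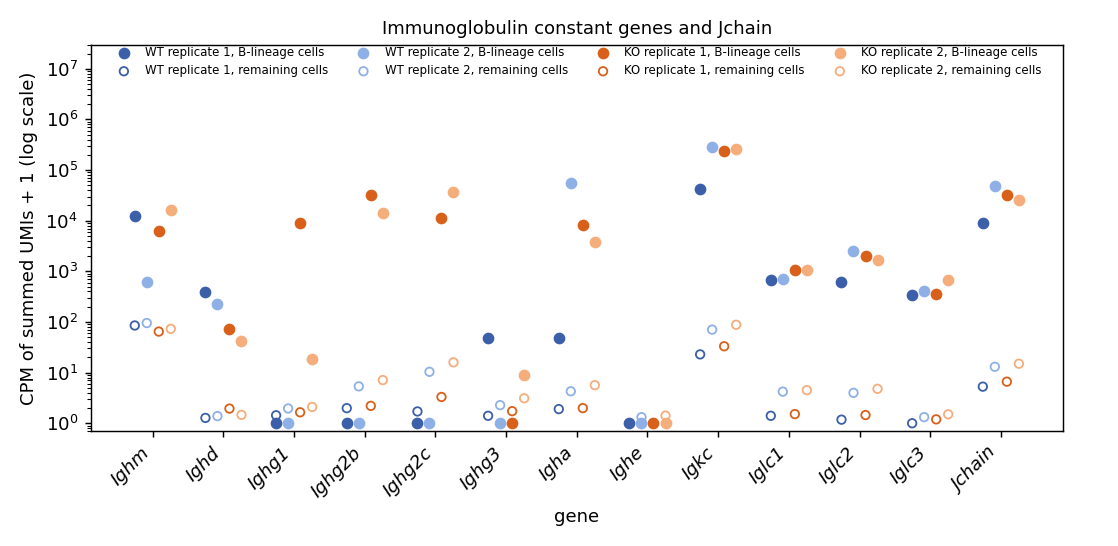
CPM of summed UMIs (log scale, 1 added) for the 13 immunoglobulin constant genes and Jchain in each library, filled for B-lineage cells and open for cells outside the rule with fewer than 100 heavy chain UMIs. Ighg2b and Ighg2c were at 0 in the WT B-lineage cells and between 11366 and 37475 CPM in the KO B-lineage cells, and Igkc was at 41943 CPM or more in B-lineage cells of each library.

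Among the 4105 genes that averaged 50 CPM or more in B-lineage or in other cells, 3% had a log2 ratio of B-lineage over other cells (10 CPM added) above 1 in all 4 libraries and 8.28% had one below -1. The other cells here include the antibody-rich cells that the rule left out, and the rule selected cells on this contrast, so these counts and those of the lists below carry no test. Apart from Cd79a, which the rule had used, and after Igkc and Jchain, the genes that stood highest in the library where they were lowest were Cd74, the MHC class II invariant chain, at 3451 to 5370 CPM against 1.57 to 25.3 CPM in other cells, Iglc2, and the class II chains H2-Aa, H2-Ab1 and H2-Eb1. H2-Aa was at 672 to 2268 CPM against 0.566 to 8.29 CPM. Of the 8 measurable genes of antigen presentation, 7 were higher in all 4 libraries. Of 11 B cell identity genes, 8 were higher, among them Bank1, a B cell adaptor, with 345 to 755 CPM against 0.767 to 2.71 CPM, and Ebf1 with 254 to 1273 CPM against 0.145 to 1.32 CPM. Of the 18 genes of antibody secretion, 10 were higher, including Mzb1, a chaperone of antibody assembly, with 417 to 5123 CPM against 16.1 to 43.8 CPM. Slpi, a secreted protease inhibitor, was at 116 to 16597 CPM, but 53.3% of its UMIs came from 1 cell. The genes that stood lowest in the library where they were highest were Ikzf2, Hdac4 and Arhgap5. CPM are relative to all UMIs, of which immunoglobulin genes took 5.68% and 34.5% in WT and 31.2% and 34.5% in KO B-lineage cells. Genes of T cell precursors were among those that were lower. Il2ra (CD25) stood at 0 to 41.2 CPM against 329 to 542 CPM and Notch1, which drives T cell commitment, at 0 to 46.3 against 316 to 386 CPM, and 9 of 13 T-lineage genes were lower in all 4 libraries.

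Aire, which licensed thymic B cells can express, and the pre-B gene Igll1 had no UMI in the 73 cells. The 8 listed licensing genes, among them Aire, Cd40, Cd69 and Irf4, summed to 162 and 133 CPM in WT and 599 and 267 CPM in KO. In the other cells they summed to 18.6 to 69.7 CPM, although 0 of the 2 countable ones had a log2 ratio above 1 in all 4 libraries. Most of the KO sums came from Irf4, at 490 and 153 CPM, and Cd69, at 78.7 and 80.4 CPM. Irf4 is also on the antibody secretion list, and 92.5% of its UMIs lay in antibody-rich cells. Cd40 was at 6.06 and 13.7 CPM in KO, so the sums do not show a raised licensing programme. Of the germinal centre genes 0 of 2 countable ones were higher than in other cells. Rag1, Il7r and Dntt were lower in all 4 libraries than in the other cells. Vpreb3 was higher, at 37.2 to 1018 CPM. Vpreb1 and Vpreb2 were not analysed here. Mki67, a proliferation marker, was found in 17 of 47 antibody-rich and 1 of 26 antibody-low cells, against 21.8% to 34.2% of the other cells, which were shallower than the antibody-rich cells. In CPM, Mki67 was lower in B-lineage than in other cells of all 4 libraries (0 to 99.9 against 193 to 336 CPM), as were Top2a and Cdk1, and the cycling genes summed to 0 to 57 UMIs per antibody-rich cell with a median of 1. Interferon-responsive Ifi27l2a was at 208 to 1252 CPM, higher than the 13.9 to 92.3 CPM of other cells in all 4 libraries. Gfi1 itself had 0 UMIs in the WT and 8 in the KO B-lineage cells, each of the 8 in an antibody-rich cell. In the other cells it was at 44.7 and 40.6 CPM in WT and 70.7 and 56.9 CPM in KO. The 3′ reads counted here need not come from the deleted part of the gene, so this level does not check the genotype labels.

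KO and WT B-lineage cells were then compared gene by gene on their summed UMIs with edgeR's quasi-likelihood test and Benjamini-Hochberg adjustment. The sums were small in WT, 43202 and 22512 UMIs from 7 and 4 cells, against 165147 and 510267 in KO. The cell of WT replicate 1 that went against the label gave 16945 of the UMIs of that library (39.2%), and without the 4 cells of 40 or more T-lineage UMIs 58 genes were called, 26 higher and 32 lower in KO. The sums also mixed antibody-rich and antibody-low cells in the unequal shares given above. Of 1326 genes tested, 2.34% passed an adjusted p of 0.05, 27 genes (2.04%) higher in KO and 4 (0.302%) lower. With the pool as a block, which the shared runs call for, 0 genes passed (165 at an unadjusted p under 0.05), and DESeq2 passed 2 genes, Ighg2b and Ighg2c (88 at an unadjusted p under 0.05). Leaving out 1 library at a time gave 4 calls without either KO replicate, 11 without WT replicate 1 and 206 without WT replicate 2, and 0 genes passed when at least 3 Cd79a UMIs were required (144 at an unadjusted p under 0.05). The calls below are those of the unblocked fit, and none of them passed with the pool block.

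Of the 13 immunoglobulin constant genes and Jchain, 10 were tested and 3 called. Igkc, Ighg2b and Jchain were among the markers listed for these cells beforehand, so their tests are not independent of that choice. Ighg2b rose from 0 UMIs in both WT libraries to 5204 and 7403 in KO (edgeR adjusted p = 0.00683, and 0.341 with the pool block). Ighg2c rose from 0 to 1877 and 19122 UMIs (edgeR adjusted p = 0.00731, and 0.341 with the block). Set against a floor of 3 UMIs over the WT group, these were 409-fold and 681-fold higher. The floor counts UMIs, but the Ighg2b and Ighg2c UMIs came from 15 and 26 KO cells, with up to 1923 and 1658 in 1 cell. WT held 3 antibody-rich cells in all, so these folds are not lower limits for the genotypes. Ighd fell by 2.16 ± 0.59 (SE) on the log2 scale (edgeR adjusted p = 0.0385). All of its UMIs lay in antibody-low cells, which were the smaller part of the KO cells, and within antibody-low cells its log2 difference was -0.53 (edgeR adjusted p = 0.849). The other 7 had adjusted p-values from 0.507 to 0.971 in edgeR. For Igha this rested on WT replicate 2, without which it was higher in KO by 7.93 on the log2 scale, against a difference of -2.08 with all 4 libraries. That fit had 2 Igha UMIs in the lone WT library, whose spread is assumed to be that of the KO libraries. The others moved as well. Over all settings the log2 difference ranged from -0.58 to 4.49 for Ighm, -0.20 to 8.95 for Igkc and -0.58 to 13.5 for Jchain. For Iglc1, Iglc2 and Iglc3 it ranged from 0.036 to 5.17, -0.32 to 2.53 and 0.18 to 7.19. Igkc had a log2 difference of 0.81 ± 2.43 (SE) and Jchain one of 0.23 ± 1.76, errors that leave a large change in either direction possible.

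The remaining called genes included Sec61a1, the protein channel of the endoplasmic reticulum, and Sec24d, a coat protein of vesicles that leave it. Both had 0 UMIs in WT and 90 UMIs in KO, 2.92-fold higher relative to the floor of 3 WT UMIs. Isg20, an exonuclease, had 0 and 151 UMIs, and Fndc3b 0 and 140. Irf4, the transcription factor required for plasma cells, had 46.3 and 0 CPM in WT and 490 and 153 CPM in KO (log2 difference 3.76 ± 0.91 SE, edgeR adjusted p = 0.0155). Fkbp11, a chaperone of secretory cells, had 23.1 and 267 CPM in WT and 448 and 756 CPM in KO (edgeR adjusted p = 0.0470). Irf4 and Fkbp11 were the 2 genes called of 16 tested for antibody secretion, a list whose median log2 difference was 1.74 against 0.05 over all tested genes. Antibody-rich cells held 86.9% of the summed UMIs in KO and 37.2% in WT (82.5% in all), and for each of the 27 genes higher in KO at least 92.5% of the UMIs lay in them. In a fit on the antibody-rich B-lineage cells alone, added after seeing the data and resting on 1 and 2 WT cells, 2 of 734 genes passed in edgeR (52 at an unadjusted p under 0.05). These were Ighg2b and Ighg2c (edgeR adjusted p = 0.00821 for both). With so few WT cells, the genes that no longer passed were not shown to be equal between the genotypes.

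Ly6a2 had 0 UMIs in WT and 33 and 224 in KO, from 34 antibody-rich cells, and Tex14 0 UMIs in WT and 58 and 116 in KO. The V genes Igkv10-96 and Ighv3-6 were called as well, but from 8 and 7 cells, with 20.4% and 29.8% of their UMIs in 1 cell. Of the 4 genes lower in KO, Vpreb3, a gene of immature B cells, was at 1018 and 133 CPM in WT and 84.8 and 37.2 CPM in KO (edgeR adjusted p = 0.00145), and 32.5% of its UMIs lay in antibody-rich cells. This call rested on WT replicate 1, with 44 Vpreb3 UMIs in 3 cells, and 1 cell gave 28.8% of all Vpreb3 UMIs. Without that library its log2 difference went from -3.03 to -0.96 (edgeR adjusted p = 0.735). Ets1, a transcription factor that restrains plasma cell formation, was at 486 and 489 CPM in WT and 66.6 and 88.2 CPM in KO (edgeR adjusted p = 0.0169), with 35.2% in antibody-rich cells, and within antibody-low cells its log2 difference went from -2.18 to -1.16 (edgeR adjusted p = 0.820). Med6 rested on 19 UMIs.

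**Figure D5:**
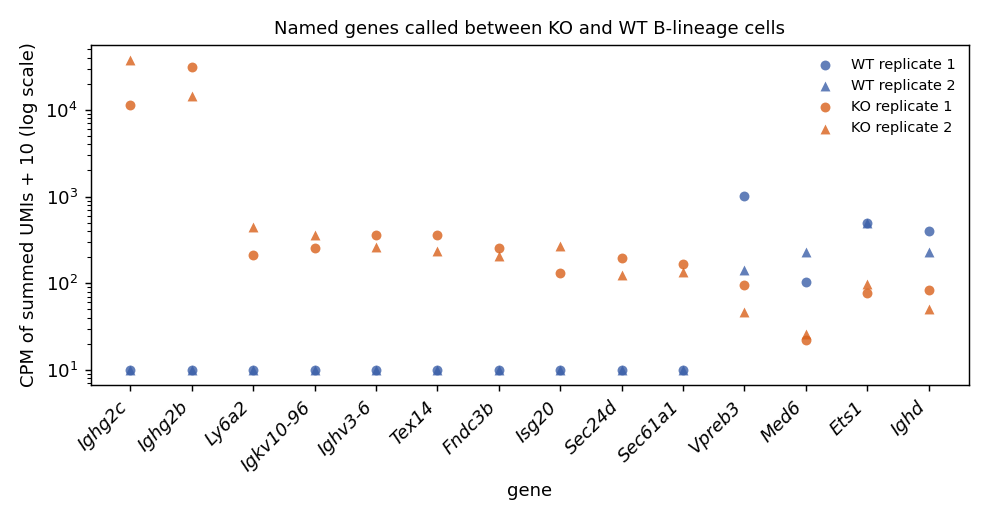
CPM of summed UMIs in B-lineage cells (log scale, 10 added) for the 14 named genes called in the unblocked edgeR fit, with each library as 1 point. For the first 10 genes both WT libraries lay at 0 CPM, drawn at 10, and the KO libraries above them. Vpreb3, Med6, Ets1 and Ighd were lower in both KO libraries, with no overlap between genotypes. Genes were drawn only if called and with 1 direction in both pools, so this separation follows from the choice. None of them passed with the pool block.

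None of the B cell identity genes (10 tested), antigen receptor signalling genes (9), MHC class II genes (7) or survival genes (4) was called in the unblocked edgeR fit. Nor was any homing gene (2), innate-like and marginal zone gene (3), interferon-responsive gene (2) or cycling gene (2). Over all 1326 genes 2.34% were called and 215 had an unadjusted p under 0.05, so 0 calls in lists this short do not show equal levels. The median log2 differences of these lists were, in this order, -0.32, -0.29, -0.71, 0.78, 0.64, 0.45, 0.91 and 0.12. The lowest adjusted p-values belonged to the signalling gene Pik3ap1 and the survival gene Bcl2, with log2 differences of -2.28 and -1.81 (edgeR adjusted p = 0.0592 and 0.0772). The survival genes Mcl1, Tnfrsf13b and Tnfrsf17 stood at 0.78, 0.79 and 0.90. Of genes marking other cells, 3 T-lineage, 2 plasmacytoid dendritic, 1 myeloid and 1 epithelial gene could be tested and none was called. The summed T-lineage genes were at 3264 and 400 CPM in WT and 545 and 621 CPM in KO, against 8249 to 8689 CPM in the other cells, and the WT replicate 1 value included the cell with 98 T-lineage UMIs. Haemoglobin genes were at 0 in the B-lineage cells of the 4 libraries, as were 5 of the 8 myeloid genes, Csf1r, Itgam, Adgre1, S100a8 and S100a9. Of the other 3, Lyz2 had 1 UMI and Cd68 had 2 in all, whereas Fcer1g, an Fc receptor chain that several blood cell types use, was at 139 and 178 CPM in WT and 42.4 and 135 CPM in KO, against 5.47 to 30.4 CPM in the other cells.

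The same rule found 12 cells in the splenic and 4 in the thymic γδ T cell sorts of the same series, which used other gates. Splenic γδ T libraries held 8 and 1 such cells in WT and 2 and 1 in KO, and thymic γδ T libraries 0 and 1 in WT and 1 and 2 in KO. The 8 cells of the first WT spleen library (0.102% of its cells) were antibody-rich, against 1 antibody-rich cell in WT replicate 1 of the DN1–DN3 sort. Ighm led in 6 of these 8 WT cells and Ighg2c in 2, so WT cells led by an IgG gene were found in the splenic sort. In the KO spleen libraries Ighm led in all 3 cells, and of the 2 cells in the second KO library of thymic γδ T cells 1 was led by Ighg2c and 1 by Ighm. Near the limits of the rule in the DN1–DN3 sort, 2 and 0 cells of WT replicates 1 and 2 and 4 and 8 cells of KO replicates 1 and 2 had exactly 2 Cd79a UMIs. Just outside it, 5 and 7 WT cells and 12 and 7 KO cells had 1 Cd79a UMI and no Ptcra UMI. With 2 or more Cd79a UMIs but at least 1 Ptcra UMI there were 0 and 1 WT cells and 5 and 8 KO cells.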

How the data were processed

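The authors deposited UMI counts per gene and cell, made with Cell Ranger 8.0.1 on GRCm39 according to the submitters' processing notes from 10x Genomics 3′ libraries, and split each pool by hashtag with hashsolo. Each deposited matrix was assigned to WT or KO through the hashtag named in the labels. Hashtag UMIs inside these matrices were read as well, but the split by hashtag had largely fixed which tag led. No doublet caller was run here. The 4 libraries of the DN1–DN3 sort held 46724322 to 62578788 UMIs, and intervals given for shares cover counting error only.

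Counts of B-lineage cells were summed per library and tested with edgeR 4.0.16 (R 4.3.3; TMM, filterByExpr, robust quasi-likelihood F test), without 9532 ribosomal, Gm-numbered and mitochondrial genes, as in the study's methods. The SE given with a log2 difference was derived as its absolute value divided by the square root of the F statistic, and was not itself fitted. In counts simulated for this comparison over 1158 genes, edgeR recovered 33.3% of genes changed 4-fold and 94.9% of genes changed 16-fold. The simulation gave each gene the same dispersion of 0.118 and did not mix antibody-rich and antibody-low cells. Recovery of antibody genes, which varied more between libraries, was not measured by it. Shares were compared by exact permutation over libraries. The pool number marks a shared run and was used as a block in an alternative, and gene deviations from the genotype means correlated at 0.123 between the WT and KO libraries of a pool. DESeq2 1.42.0 was another alternative.

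Named were the immunoglobulin constant genes and Jchain, the genes of highest and lowest ratio to other cells, the called genes of largest difference averaging 50 CPM or more with 1 direction in both pools, and list examples by level. Further called genes and per-cell markers were chosen after their values were seen. Members and lists were chosen with earlier results of these data known, and Cd79a, Igkc, Ighg2b and Jchain were the markers listed for the members. The reference transcripts for the comparison of Ighg2b and Ighg2c were those of GENCODE on GRCm38.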

Additional observations from a re-analysis of the deposited data

Results flagged for a closer look

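Cells outside the rule also held high antibody transcripts. In KO replicate 1, 10 such cells had 100 or more heavy chain constant UMIs, and in KO replicate 2 there were 23, against 0 and 2 in the WT libraries. They had fewer than 2 Cd79a UMIs or at least 1 Ptcra UMI: in KO replicate 1, 2 had no and 5 had 1 Cd79a UMI and 3 had a Ptcra UMI, and in KO replicate 2 these numbers were 11, 5 and 9. Each held a Jchain UMI (medians 342 and 206), and IgG genes led in 7 of 10 and 19 of 23. In KO replicate 2, 2 of them were led by Ighg3 and 1 by Ighe, isotypes that led in none of the 73 B-lineage cells. T-lineage genes summed to medians of 2.5 and 3 UMIs, with 40 or more in 1 and 4 cells. The 2 WT cells, both of WT replicate 2, had a T-lineage median of 87 UMIs, with 40 or more in 1 of them.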

How the results depend on the processing

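Both share differences kept their direction under each alternative run, with p no lower than 0.333 by exact permutation, the smallest value possible. The share led by an IgG gene was 0 in WT under each rule, so its difference could not turn negative. The share of B-lineage cells in KO minus WT ranged from 0.0726 (no Cd3 UMI allowed) to 0.539 points (without KO replicate 1), and the share led by an IgG gene from 46.7 to 71.7 points. Without Cd3 UMIs WT replicate 2 held no cell and entered the first difference as a share of 0. Only the IgG share and the gene fit then used 3 libraries. With the replicate block, taken as the mean difference within pools, the values were 0.339 and 48.9 points (exact p = 0.5, the smallest for 2 pools). Each pool held 1 WT and 1 KO library, so this mean equals the unblocked difference by construction.

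The number of genes called was unstable. Against 31 called genes, 14 named and 3 immunoglobulin constant genes or Jchain in the unblocked edgeR fit, the replicate block gave 0, 0 and 0, as did at least 3 Cd79a UMIs and, added after seeing the data, the antibody-low cells alone, where 300 genes could be tested (13 at an unadjusted p under 0.05). At least 1 Cd79a UMI gave 434 calls and 5 constant genes, no Ptcra condition 233 calls, and no Cd3 UMI 38 calls with 1 of the named genes. DESeq2 gave 2 calls and 2 named genes, no TMM factors 3 and 3, and leaving out immunoglobulin genes 6 and 4. Added after seeing the data, removal of cells with 40 or more T-lineage UMIs gave 58 calls and a rule on 100 or more heavy chain UMIs 16 calls and 5 named genes, whereas antibody-rich B-lineage cells alone gave 2 calls, Ighg2b and Ighg2c. Leaving out 1 library gave 4 to 206 calls, 2 to 12 named genes and 0 to 5 constant genes. The cause was not tested. Of the calls, 87.1% were higher in KO, against 66.7% without TMM factors, where the median over all genes shifted from 0.05 to -0.70 (log2), and 50% without immunoglobulin genes, 62.4% and 69.1% with 1 Cd79a UMI and without the Ptcra condition, and 44.8% without cells of 40 or more T-lineage UMIs.

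In 12 cases the sign of an antibody gene changed, each for a gene that was not called with all 4 libraries. The log2 difference of Igha was -2.08 in the unblocked fit, 11.99 without Cd3 UMIs, 1.67 with the replicate block and -2.90 to 7.93 without 1 library, with a call (edgeR adjusted p = 7.61e-06) without WT replicate 2. That of Ighm became -0.38 under the heavy chain rule, of Igkc -0.20 in antibody-low cells and of Jchain -0.039 without TMM factors. In antibody-rich B-lineage cells alone Ighm was at -0.58, Iglc2 at -0.32 and Jchain at -0.58. Without 1 library, which leaves a lone library in 1 genotype, assumed to vary like the other, Iglc2 ranged from -0.18 to 2.53 and Jchain from -0.42 to 2.66.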

Other observations

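Counted by heavy chain UMIs alone, cells with 100 or more were 1 and 4 in the WT libraries (0.0137% and 0.0525%) and 21 and 56 in the KO libraries (0.299% and 0.730%). Together with the B-lineage cells they held 98.0% and 97.6% of all Igkc UMIs of KO replicates 1 and 2, and 57.2% and 63.0% in WT replicates 1 and 2. KO minus WT was 0.285 percentage points within pool 1 and 0.678 within pool 2.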
